A study of Caenorhabditis elegans with 2 samples.

Results

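The nuclear genes for the mitochondrial respiratory chain of Caenorhabditis elegans were examined for regions bound by SPTF-1, which belongs to the Sp group of zinc-finger proteins that bind DNA and regulate transcription. They were picked out by their names, as the protein-coding nuclear genes of the nuo, cox, atp, ucr and sdh series together with gas-1, isp-1, mev-1, lpd-5, asb-1, asb-2, asg-1, asg-2, cyc-1, cyc-2.1 and cyc-2.2. The rule found 46 genes among 19973 nuclear protein-coding genes. The rule uses no measured value, but it was drawn up with earlier results of these data known. Of these, 8 belong to complex I, 5 to complex II, 7 to complex III and 9 to complex V, 2 code for cytochrome c, and the cox series gives 7 subunits and 8 assembly factors of complex IV. Chromatin immunoprecipitation with sequencing had been done on whole embryos of strain OP707, genotype unc-119(tm4063) III; wgIs707, whose integrated transgene makes SPTF-1 with a GFP and FLAG tag at its C terminus. The embryos were of mixed stages and pooled sexes, taken 2.5 hours after egg bleaching, and the chromatin was sonicated. One label names an antibody to GFP and another names sptf-1 as the antibody. The labels name no promoter for the transgene. There was 1 group with 2 biological replicates and no second condition, so the genes were described side by side and no test between groups was possible. Signal from all cell types of the embryo is mixed in each value, and the read depth behind the lists is unknown.

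The respiratory chain passes electrons from NADH, through complex I, and from succinate, through complex II, to ubiquinone. Complex III hands them on to the small protein cytochrome c, complex IV reduces oxygen with them, and complex V, the ATP synthase, uses the proton gradient that is built on the way. A few subunits are coded in mitochondrial DNA, while all others are coded in the nucleus and imported. Sp family proteins bind GC-rich DNA, for which the GC box GGGCGG is the textbook site in mammals. In C. elegans many promoters serve a pair of genes that point away from each other, and many genes lie in operons, where a single promoter serves a row of genes on the same strand.

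The DNA under the 6 strongest summits outside the first chromosome is shown first, since these are the places to which the values below refer. Each line holds 151 bases centred on the summit of the thresholded list, read in the direction of the gene, from the RefSeq WBcel235 genome, which is the ce11 build. Capitals mark GGGCGG or TGACGCA, or their reverse complements.
cox-5A (chrIII:12905114-12905264, plus strand): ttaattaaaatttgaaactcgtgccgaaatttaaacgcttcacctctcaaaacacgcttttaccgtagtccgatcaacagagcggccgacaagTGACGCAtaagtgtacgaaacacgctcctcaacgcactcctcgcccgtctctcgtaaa
cox-6B (chrIII:2785971-2786121, plus strand): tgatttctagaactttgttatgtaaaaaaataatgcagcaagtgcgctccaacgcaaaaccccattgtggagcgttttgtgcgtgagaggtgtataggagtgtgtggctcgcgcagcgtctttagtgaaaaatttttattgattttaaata
cox-6A (chrIII:5080850-5081000, plus strand): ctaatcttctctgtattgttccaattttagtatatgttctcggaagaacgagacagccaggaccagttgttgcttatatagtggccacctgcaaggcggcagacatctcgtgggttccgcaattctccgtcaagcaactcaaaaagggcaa
mev-1 (chrIII:10334075-10334225, plus strand): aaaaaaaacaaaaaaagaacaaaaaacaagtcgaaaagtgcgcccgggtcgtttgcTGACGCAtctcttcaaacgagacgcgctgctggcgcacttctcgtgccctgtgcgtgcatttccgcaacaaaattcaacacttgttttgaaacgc
ucr-2.2 (chrX:15173615-15173765, plus strand): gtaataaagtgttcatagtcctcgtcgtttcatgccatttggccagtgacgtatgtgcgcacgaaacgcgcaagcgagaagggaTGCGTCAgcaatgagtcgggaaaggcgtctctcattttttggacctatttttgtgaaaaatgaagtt
atp-2 (chrIII:5228077-5228227, plus strand): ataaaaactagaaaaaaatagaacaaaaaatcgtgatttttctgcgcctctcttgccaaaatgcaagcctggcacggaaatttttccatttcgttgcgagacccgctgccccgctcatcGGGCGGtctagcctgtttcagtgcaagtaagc
The GC box was found in 1 of these 6 windows, at atp-2, and TGACGCA in those of cox-5A, mev-1 and ucr-2.2. Neither word was present in the windows of cox-6A and cox-6B.

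A gene was counted as having a promoter summit if a region's summit, its highest point, lay in a window around any annotated transcript start (5' end), reaching 1000 bp upstream and 500 bp downstream. The authors' thresholded list, made from both replicates, marked 15 of the 46 genes, against 8.26% of all nuclear protein-coding genes (1650 of 19973). By complex, the count was 1 of 8 for complex I, 1 of 5 for complex II, 3 of 7 for complex III, 1 of 2 for cytochrome c, 4 of 7 for complex IV subunits, 0 of 8 for complex IV assembly factors and 5 of 9 for complex V. Complexes III to V with cytochrome c, but without the assembly factors, made up 25 of the 46 genes and held 13 of the 15. This joined count was not planned and takes in the groups with the largest shares, so nothing is read from it. The rule takes in only part of complex I. The 2430 strongest regions of replicate 1, as many as the thresholded list has, marked 15 of the genes, where the background was 7.97%. Those of replicate 2 marked 16, where the background was 8.49%. Both replicates marked 13 of them (28.3%), against 6.28% of all genes. Replicate 2 had 2 genes of complex I and 2 of complex II, and replicate 1 had 1 of each. Complexes III and IV and cytochrome c had the same counts in both replicates, and complex V had 5 in replicate 1 and 4 in replicate 2. The numbers of genes per complex are small, and no difference between complexes was tested.

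**Figure D1:**
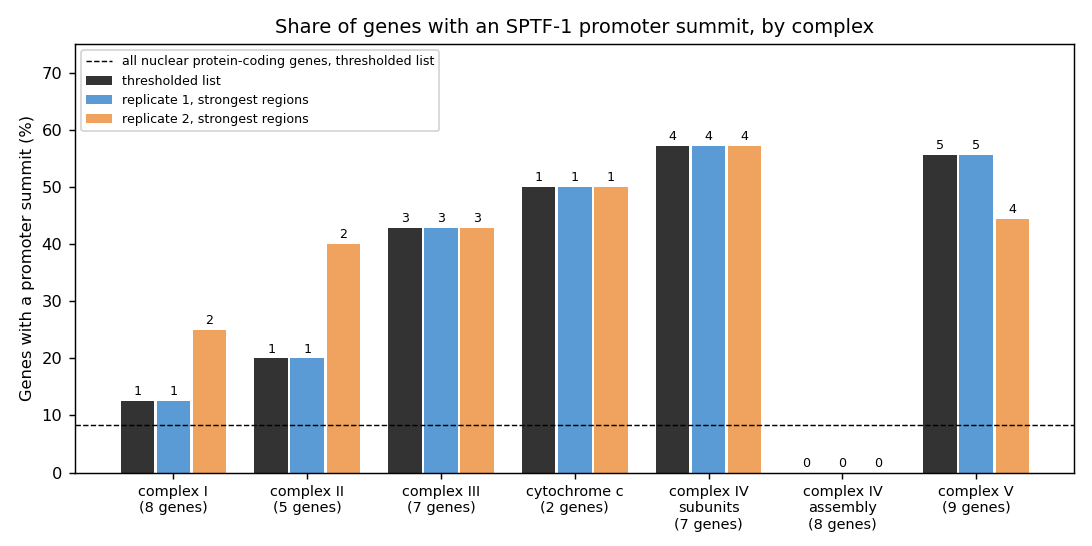
Percentage of the genes of each complex (y axis) with an SPTF-1 summit in the promoter window, in the thresholded list and among the 2430 strongest regions of each replicate. The number over each bar counts genes, and the dashed line is the 8.26% of all nuclear protein-coding genes. The complex IV assembly factors have 0 in all 3 lists, a count too small to set apart from the line. The bars of every other group stand above the line, in complexes I and II with only 1 or 2 genes each.

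Complex IV, cytochrome c oxidase, had the strongest pair of summits among the 46 genes, at cox-5B and cox-5A. Signal values are those the authors' caller gave, and ranks count from the strongest of 30000 regions in the list made from both replicates, of which the first 2430 are the thresholded list. The gene cox-5B, for a nuclear subunit of the enzyme, had a summit with a signal value of 905 and rank 136, 1 bp upstream of an annotated 5' end, at 9788566-9788849 on chromosome I. In the replicate lists, which are on their own scales, that region had signal values of 459 (rank 182) and 439.9 (rank 106). The place thus ranked near the top in each replicate. A weaker summit, with a signal value of 231 and rank 2136, lay 698 bp upstream of cox-5B, nearer to the tubulin gene tba-1, and ranked 1928 and 4011 in replicates 1 and 2.

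The subunit gene cox-5A had a signal value of 717 (rank 225) at 302 bp upstream, with 388 (rank 244) in replicate 1 and 325 (rank 216) in replicate 2. For cox-6B the signal value was 625 (rank 288), with 349 (rank 290) and 262 (rank 332) in the replicates. Its summit lay 156 bp upstream of the downstream one of 2 annotated 5' ends and inside an intron of the long gene model, and it was nearest to Y71H2AM.20. The same summit fell in the window of nduc-2, which codes for a complex I subunit. For cox-6A the signal value was 470.5 (rank 517), with ranks 676 and 426 in the replicates. That summit lay 799 bp upstream and within 200 bp of the snRNA gene F54D8.7, and whether the region belongs to the snRNA gene was not tested. The other 3 subunit genes had regions below the threshold, cox-6C just below it (signal value 210.2, rank 2661), cox-4 at rank 8359 and cox-7C at rank 14480. All 7 subunit genes therefore had a region in the pooled list, and 4 of them lay in its first 517.

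The assembly factors of complex IV, which make heme A (cox-10, cox-15), deliver copper (cox-11, cox-17, cox-19), insert a subunit into the membrane (cox-18) or help in other steps (cox-14, cox-16), had no thresholded promoter summit. With 8 genes, a count of 0 is too small to set apart from the 8.26% of all genes. The highest ranked region among these 8 genes was that of cox-16, with a signal value of 181 and rank 3871, followed by cox-14 at 142 (rank 7329) and cox-10 at 139 (rank 7733). For cox-14 the replicates differed, with rank 20241 in replicate 1 and 3287 in replicate 2. No region of any list lay in the window of cox-19, and cox-15 had only a region of rank 12701 in replicate 2. In the pooled list as a whole, 6 of the 8 assembly factor genes had a region, against 39.8% of all nuclear protein-coding genes and 39 of the 46 respiratory chain genes.

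In complex III, cyc-1, which codes for cytochrome c1, had the strongest summit, with a signal value of 639.6 (rank 279) at 316 bp upstream. Its regions in the replicates had signal values of 350.1 (rank 286) and 284 (rank 280), so that its rank was nearly the same in the 3 lists. Core protein genes came next: ucr-2.2 had 406 (rank 688) at 214 bp upstream, with replicate signal values of 215 and 193, and ucr-2.1 had 312 (rank 1126) at 245 bp upstream, with 166 and 148. The ucr-2.1 summit was nearer to nmat-1, which points the other way. The third gene of that series, ucr-2.3, had only a region of signal value 99.4 and rank 16385, and none in replicate 2. The Rieske iron-sulfur protein gene isp-1 had its best region at rank 6210 (signal value 151), ucr-11 at rank 11252 and ucr-1 at rank 12695.

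The cytochrome c genes cyc-2.1 and cyc-2.2 differed. At cyc-2.1, which has 2 annotated 5' ends, a summit of signal value 329 (rank 1014) lay 75 bp upstream of the nearer one, in an intron, with 189 (rank 997) and 142 (rank 1175) in replicates 1 and 2. For cyc-2.2 no list had a region in the window.

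Among the complex V genes that the rule takes in, atp-1 and atp-2, for subunits of the catalytic F1 head, stood first. Other genes of the head were not among them. The alpha subunit gene atp-1 had a signal value of 524 (rank 412), with 305 and 223 in the replicates, and its summit lay 37 bp downstream of the 5' end, in the 5' UTR. The beta subunit gene atp-2 had 377 (rank 784) at 265 bp upstream, with 198 and 164. The gene atp-3, for the subunit that joins head and stalk, had 302 (rank 1198) at 8 bp downstream, with 150.4 and 148. These 3 genes ranked within the strongest 2430 regions in both replicates. The stalk subunit gene atp-5 (231, rank 2131) and the subunit g gene asg-2 (230.0, rank 2159) were just inside the threshold. Replicate 1 placed atp-5 at rank 2687 and replicate 2 at rank 1639, while asg-2 had ranks 3116 and 2558, outside the strongest 2430 in each. Counting only summits found among the strongest of both replicates, complex V had 3 genes.

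Just outside the threshold in complex V was the coupling factor gene atp-4, with a signal value of 196 and rank 3170. The best region for atp-4 lay at different places in the replicates. In replicate 1 it was 491 bp upstream, at rank 1816, and in replicate 2 it was 50 bp downstream of the 5' end, at rank 9151. The pooled summit lay 501 bp upstream. Of the genes for subunit b, asb-2, used in the soma, had a region of rank 2075 in replicate 1 and none in replicate 2, and its pooled rank was 6648. Its germ line counterpart asb-1 had a region in the pooled list only, at rank 19617. The other subunit g gene, asg-1, was at rank 24212. In both of these gene pairs 1 member ranked far above the other, but neither asb gene reached the thresholded list.

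**Figure D2:**
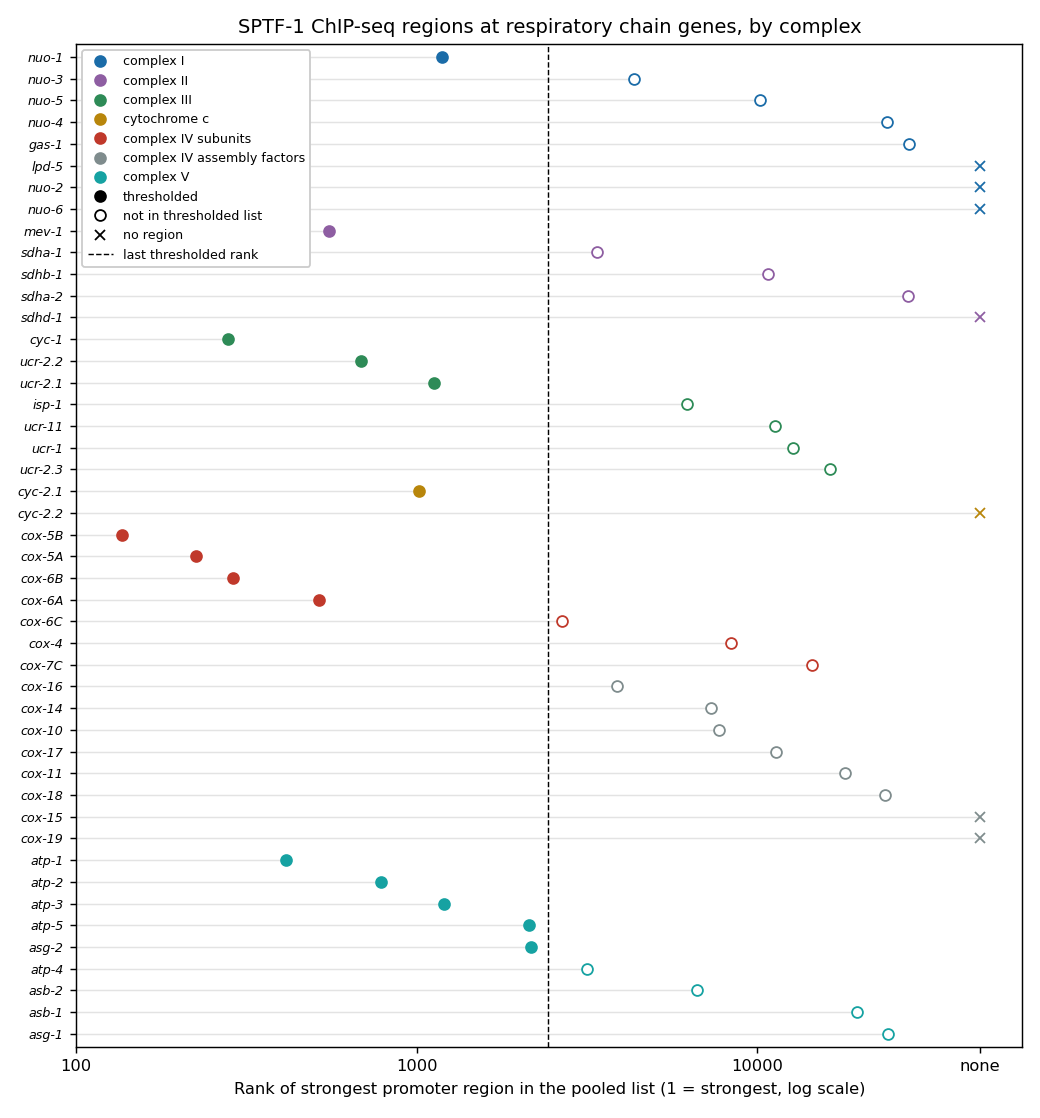
Rank of the strongest region in the promoter window of each of the 46 genes in the pooled list (x axis, log scale, 1 is strongest), grouped by complex. Filled points are in the thresholded list, open points are below it, crosses have no region, and the dashed line stands at rank 2430. Complex IV subunits reach from rank 136 to 14480, and none of the assembly factors lies left of the line.

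Complexes I and II, where electrons enter, had 2 of the 13 genes that the names take in for them in the thresholded list, against 8.26% of all genes. Most complex I genes carry other names and are counted with the further genes of energy metabolism. In complex I this was nuo-1, which codes for the flavoprotein that takes electrons from NADH. Its signal value was 304 (rank 1183), with 153 (rank 1578) and 146 (rank 1112) in the replicates, 306 bp upstream in a region shared with the ribosomal protein gene rpl-36.A. Next came nuo-3 at rank 4352, nuo-5 at 10193, nuo-4 at 24049 and gas-1, for a core iron-sulfur subunit, at 27924. The iron-sulfur protein gene nuo-2 had a region of signal value 222 and rank 493 in replicate 2, at 170 bp upstream. No region of replicate 1 or of the pooled list overlapped it, so the gene was marked by replicate 2 only. The windows of lpd-5 and nuo-6 held only the summits of regions of ranks 23637 and 28049 in replicate 2. The lpd-5 region overlapped a region of replicate 1 and one of the pooled list, whose summits lay outside the window. That of nuo-6 overlapped none in either list.

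In complex II, succinate dehydrogenase, mev-1 had a summit of signal value 455 (rank 554) at 127 bp upstream. It codes for the membrane subunit that carries cytochrome b. The replicates gave 265 (rank 504) and 189 (rank 660). Of the flavoprotein genes, sdha-1 was at pooled rank 3373 (signal value 191) and sdha-2 at 27600 (72.9). In replicate 1 they lay close together, at ranks 8164 and 9863, while in replicate 2 sdha-1 was at rank 2034 and sdha-2 had no region. The iron-sulfur subunit gene sdhb-1 was at rank 10722, and the second membrane subunit gene, sdhd-1, had no region in any list. A region was absent from all 3 lists for 3 of the 46 genes, sdhd-1, cyc-2.2 and cox-19.

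Looking further down the pooled list, 20 of the 46 genes (43.5%) had a region ranked 5000 or better, against 13.6% of all nuclear protein-coding genes, and 25 (54.3%) had one ranked 10000 or better, against 21.2%. In any part of the list 84.8% of them had one. Of the genes added between the threshold and rank 5000, 1 each came from complexes I, II, V, the complex IV subunits and the assembly factors. These are nuo-3, sdha-1, atp-4, cox-6C and cox-16.

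The replicates were then compared at the 16 thresholded summits of the 15 genes. In both replicates 13 of the 16 (81.2%) overlapped one of the 2430 strongest regions, against 73.0% of the 1333 thresholded promoter summits. The exceptions were atp-5, asg-2 and the weaker cox-5B summit. Summit positions differed little between each replicate list and the pooled list: in 29 of 32 comparisons the replicate summit lay within 20 bp of the pooled one, with a median of 4 bp and a largest value of 49 bp, at atp-3 in replicate 2. The pooled list was made from both replicates, and the thresholding used agreement between them. Both the overlap and the closeness are therefore partly built in. Genes marked by the strongest regions of 1 replicate only were nuo-2 and sdha-1 in replicate 2, asb-2 and atp-4 in replicate 1, and atp-5 in replicate 2.

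**Figure D3:**
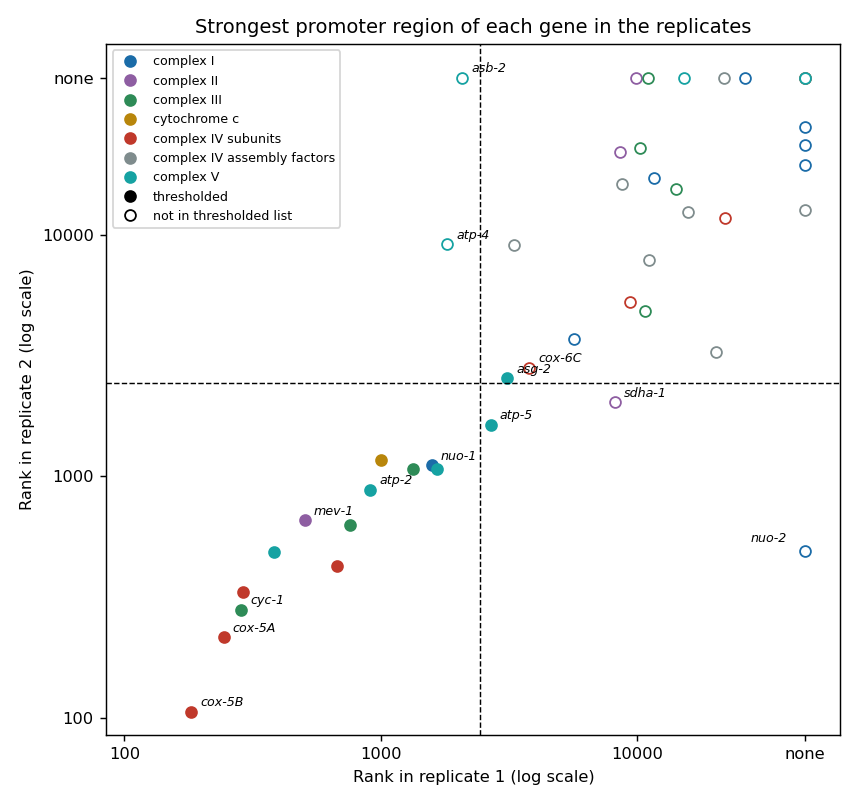
Rank of the strongest region in each gene's promoter window in replicate 1 (x axis) and replicate 2 (y axis), both on log scales, with genes lacking a region at "none" and dashed lines at rank 2430. Filled points are genes of the thresholded list, and 13 of these 15 lie inside both lines. The gene nuo-2 lies at rank 493 in replicate 2 with no region in replicate 1.

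Signal values of the 15 genes, taking the strongest summit of each, ran from 230.0 to 905 with a median of 406. The median over all 1650 genes with a thresholded promoter summit was 327, with a highest value of 3328. The median position was 214 bp upstream of the nearest 5' end, and 248 bp upstream over all 1650 genes. Upstream summits were found at 13 of the 15 genes (86.7%), against 91.0% of all marked genes, and 10 of 15 (66.7%) lay from 400 to 100 bp upstream, against 49.5%. Summits of atp-1 and atp-3 lay downstream of the 5' end.

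**Figure D4:**
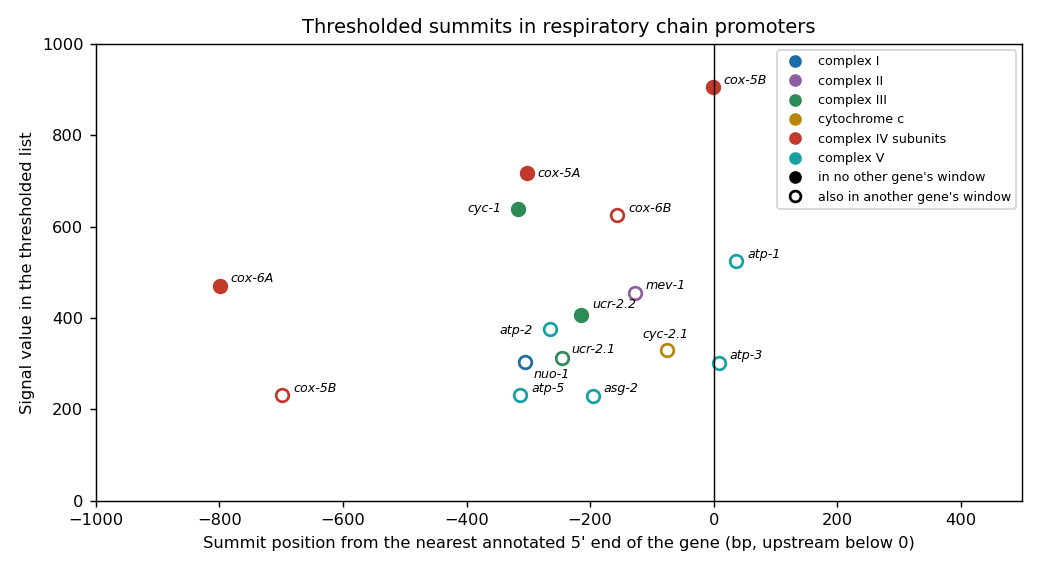
Position of the 16 thresholded summits from the nearest annotated 5' end of the gene (x axis, in bp, upstream below 0) and their signal value (y axis), coloured by complex. Open points mark the 11 summits that also lie in the promoter window of another gene. The strongest, at cox-5B, lies 1 bp upstream, and cox-6A is the farthest of the strongest summits per gene, at 799 bp.

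Many of these summits cannot be given to a single gene. Of the 16, 11 (68.8%) also fell in the promoter window of another gene, against 29.7% of all thresholded promoter summits. These shares are not on equal terms. A summit in several windows can be reached through any of its genes, whereas the 29.7% counts each summit once. Whether sharing is more frequent at these genes was not tested. Partners included rpl-36.A at nuo-1, jmjd-4 at mev-1, nmat-1 at ucr-2.1, tctn-1 at cyc-2.1, mcrs-1 at atp-1, lmtr-3 at atp-5 and glr-6 at asg-2. The nearest protein-coding neighbour on the 5' side pointed the other way within 1000 bp for 25 of the 46 genes, of which 9 had a promoter summit. That arrangement held for 21.3% of all nuclear protein-coding genes, and 15.8% of those had a summit. Among the 9, cox-6B was placed by the start of its long gene model, whereas its summit lay near the downstream 5' end, away from that neighbour. With each summit given to the nearest 5' end only, ucr-2.1, cox-6B and atp-5 lost theirs.

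For 16 genes, the neighbour on the 5' side lay on the same strand and ended within 500 bp, a spacing seen inside operons, although no annotation of operons was used here. Among them cyc-1, ucr-2.2 and cyc-2.1 had a promoter summit. This spacing applied to 20.5% of all genes, and 5.44% of those had a summit. Of the 13 others, 6 stood behind a gene that opened the row and had a thresholded summit of its own. These were nuo-4 behind syf-2 (signal value 471), nuo-5 behind Y45G12B.2 (289), ucr-11 behind dad-1 (949.9), cox-11 behind lin-54 (663), cox-18 behind Y55F3AR.2 (572) and asb-1 behind sel-2 (274). Over all 3880 genes so placed without a summit, 14.7% stood behind such a gene. For the other 7 (nuo-2, sdha-1, sdha-2, cox-15, cox-17, cox-19 and atp-4) the first gene of the row had no such summit. In front of cyc-2.1, at a gap of 110 bp from its outer 5' end, lay the ribosomal protein gene rpl-20, with a summit of signal value 1247. The cyc-2.1 summit itself lay in an intron, 75 bp upstream of the inner 5' end and so farther from rpl-20 than that gap. For cyc-1 and ucr-2.2, which also had a summit, the gaps were 457 and 267 bp.

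Words of the Sp type were searched on both strands in the 100 bp to each side of the 16 summits. The GC box GGGCGG was found at 6 (37.5%), those of atp-1, mev-1, atp-2, cyc-2.1, ucr-2.1 and atp-3. It was found in 15.2% of the 1333 thresholded promoter summits and in 5.01% of the 29304 windows of that length centred on protein-coding 5' ends. At atp-1 and cyc-2.1 the word came within 6 and 3 bp of the summit, and at mev-1 it lay 77 bp away. The related words GGGTGTGG and GGGCGTGG were found at 0 of the 16, and at 0.60% and 1.73% of the promoter summits. None of these Sp type words was in the windows of the 4 complex IV genes or of cyc-1, whose regions included the 4 of highest signal value. The word TGACGCA was picked by reading the 6 windows printed above. Its 3 matches among the 16 summits, within 24 bp of the summit, all lay in those windows and none at the other 10 summits, so its share among these genes was set by that choice and nothing is read from it. Over all promoter summits its share was 5.1%. At mev-1, where both words were found, they did not overlap. Median GC content was 42.3% in the windows of these 16 summits, 45.3% over the promoter summits and 36.3% over the 5' ends.

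Other genes of energy metabolism were counted in the same way. Among 21 further genes of oxidative phosphorylation, 5 had a thresholded promoter summit, where the share over all genes was 8.26%. The adenine nucleotide translocase gene ant-1.1 had a signal value of 519 (rank 420), nduf-11 had 475 (rank 505), and the copper chaperone gene sco-1 had 409 (rank 680). None of the 8 ubiquinone synthesis genes had one, a count too small to set apart from that share. For pyruvate dehydrogenase and the citric acid cycle the count was 7 of 19, led by idhg-1 (1479, rank 37), dlst-1 (496, rank 464) and suca-1 (405, rank 694). The names of the rule take in only 8 genes of complex I. The 25 genes of the ndu series were therefore added after the values had been seen, and 6 of these had a summit. The series overlaps the 21 genes above: nduf-11 and nduf-2.2 are among the 6 and also among the 5. The strongest of the 6 summits was that of ndua-2 (signal value 1050.2), in a region shared with the chaperone gene dnj-29. Over both series, 7 of 33 complex I genes were in the thresholded list.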

How the data were processed

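SPTF-1 ChIP-seq regions of the ce11 build were used, as 4 deposited lists: 30000 regions for each of 2 replicates, 30000 from both together, and 2430 thresholded regions. Per the deposited file listings, the caller was given a control besides the ChIP alignments, and thresholding kept what an irreproducible discovery rate procedure labels optimal. The aligner, caller, cutoff and read depth are not given in the sources used here, so no counting interval is given. The signal value is a score as the authors' caller wrote it, on a scale of its own in each list, so ranks were used between lists. The deposited −log10 q value was shared by 1725 thresholded regions at 2.02, and regions were therefore ranked by signal value. The ce10 lists were not used here.

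From these, summit positions were compared with transcript 5' ends of the Ensembl 115 annotation (WBcel235) in Python 3.11.15, and figures were drawn with matplotlib 3.10.9. The last region on each chromosome ended within the reference length. Overlap meant at least 1 shared base. Ranks of a member in a list are those of the strongest region with its summit in the window, and in the thresholded list those of overlapping replicate regions. The assignment code was run on 400 planted summits, all recovered, which checks the code and not whether a summit belongs to a gene. Alternatives covered the window, the assignment, the overlap rule, stricter and looser lists and each replicate alone. All 46 genes are accounted for. Below the threshold up to 3 genes per complex were to be named, and others are named in addition. The members, gene lists and motifs were chosen with earlier results of these data known, and the neighbour arrangement, the ndu series and TGACGCA after the values were seen. Joining complexes into larger groups was not planned.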

Additional observations from a re-analysis of the deposited data

How the results depend on the processing

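The 15 genes became 12 to 18 under the alternatives that keep the thresholded list, and the share over all genes moved as well. It was 6.24% where 12 were marked (nearest 5' end only), 10.9% where 18 were (2000 bp upstream) and 4.8% in the stronger part of the list, with 13. Of the 15, 10 (nuo-1, mev-1, cyc-1, ucr-2.2, cyc-2.1, cox-5A, cox-5B, atp-1, atp-2 and atp-3) were marked under the main setting and all 10 alternatives. Of 80 recomputed counts, 66 stayed within 1.5 times the value reported. With all pooled regions, whose background is 39.8%, the counts were 39 in all, 5 for complex I, 4 for complex II, 7 for complex III, 7 for complex IV subunits, 6 for assembly factors and 9 for complex V. A window reaching 2000 bp upstream gave complex I 2 genes (nuo-5 added) and the assembly factors 1 (cox-10). Region overlap gave complex I 2, where the share over all genes was 9.01%. Complex V had 3 genes in the stronger part of the list, and 3 where both replicates were required, with 6.19% over all genes. With each replicate left out in turn, the total was 15 to 16, complex I 1 to 2, complex II 1 to 2, complex III 3, cytochrome c 1, complex IV subunits 4, assembly factors 0 and complex V 4 to 5. Without summits near small RNA genes, an alternative chosen after seeing the data, 14 genes were left, cox-6A being lost. The share over all genes was then 7.68%. The GC box was found at 5 and 7 of the 16 summits with 50 and 150 bp to each side. The unknown read depth limits what a missing region can show. No paired analysis was possible because there was 1 group and no test.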
